A study of Mus musculus with 12 samples.

Results

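In airway organoids in which a small group of cells had been killed with a laser, RNA of 10 genes of the Eph and ephrin family was followed. They were 8 Eph receptors (Epha1, Epha2, Epha4, Epha7, Ephb2, Ephb3, Ephb4 and Ephb6) and 2 ephrins (Efna1 and Efnb1), taken by gene name from a table of 55401 genes. The members were chosen by the normalized counts of Epha7, which were higher after ablation than in the control in all 6 pairs of dishes, so the values of Epha7 in that comparison are given as a description and without a test. All 10 genes reached the minimum for testing, 10 normalized counts in 6 or more libraries, which 13792 genes met.

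Bulk RNA was measured in 12 libraries of C57BL/6J mouse airway organoids, 6 after femtosecond (fs) laser ablation of 10 cells per organoid and 6 controls without ablation. Organoids are hollow balls of epithelium grown in a gel, here from epithelial cells of digested lungs of adult wild-type mice. The paper describes them as mimicking the epithelium of the proximal airways. A library held the RNA of 45 organoids of 1 dish, taken 4.5 h after the laser. Both groups carried a lentiviral vector for a Histone2A-mCherry fusion protein under control of a p63 promoter, which the methods give as the human sequence, and both had grown with epidermal growth factor, Wnt-rich conditioned medium and Y-27632, a kinase inhibitor, before a change to FluoroBrite DMEM. Ablation and control libraries of the same number (1, 3, 4, 5, 6 and 7) shared passage, culture day and date and are called pairs. Pairs 1, 3 and 5 formed library set 1 and pairs 4, 6 and 7 formed library set 2, by their library numbers. The titles of controls 4, 6 and 7 contain the word ablation, whereas they are labelled as controls under treatment. Their title numbers end in C, as do those of controls 1, 3 and 5, while those of the ablation libraries do not. The treatment label was followed. Values of library set 1 alone, where the word in the title also matches the treatment label, are given for the family genes. They are also given for pathway genes with their full values. No label assigns dishes to separate animals, and the passages (P2+14, P2+15 and P2+16) are those of a continued culture, so p-values measure the spread between dishes only.

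Eph receptors form the largest family of receptor tyrosine kinases, and ephrins are their ligands. Ephrin-A proteins are held in the membrane by a lipid anchor and mainly bind A receptors, whereas ephrin-B proteins span the membrane and mainly bind B receptors. Because ligand and receptor both sit on cell surfaces, they signal on contact between neighbouring cells, forward into the receptor-bearing cell and in reverse into the ephrin-bearing cell. The family is known for repulsion and sorting of cells, for axon guidance and for the keeping of tissue boundaries. In epithelia it acts on cell junctions, adhesion and migration through adaptors, Src family kinases and regulators of small GTPases.

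Epha7 (ENSMUSG00000028289.12) lies on chr4:28813131-28967499, plus strand, in GRCm38, and Efnb1 (ENSMUSG00000031217.8) on chrX:99136130-99148991, plus strand. Their promoter windows are shown because they are the members whose RNA differed in the same direction in all 6 pairs, Epha7 higher and Efnb1 lower after ablation. Both sequences are from RefSeq (GRCm38.p6), 250 bases before to 50 bases after an annotated start, 5′ to 3′ on the gene's strand, with CpG dinucleotides in capitals. The Epha7 window covers chr4:28812881-28813180 and the Efnb1 window chrX:99135811-99136110.
Epha7: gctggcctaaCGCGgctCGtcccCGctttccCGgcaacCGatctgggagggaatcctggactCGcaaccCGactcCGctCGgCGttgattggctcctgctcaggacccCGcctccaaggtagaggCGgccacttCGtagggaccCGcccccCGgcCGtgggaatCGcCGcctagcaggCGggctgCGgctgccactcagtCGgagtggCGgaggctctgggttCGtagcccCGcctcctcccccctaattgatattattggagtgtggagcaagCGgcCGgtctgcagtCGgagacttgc
Efnb1: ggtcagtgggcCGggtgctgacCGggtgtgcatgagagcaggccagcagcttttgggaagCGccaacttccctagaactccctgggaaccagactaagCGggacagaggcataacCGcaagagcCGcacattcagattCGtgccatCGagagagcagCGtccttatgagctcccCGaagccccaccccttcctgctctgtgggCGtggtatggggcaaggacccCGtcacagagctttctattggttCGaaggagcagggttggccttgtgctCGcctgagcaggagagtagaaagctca
The Epha7 window held 28 CpG dinucleotides at a G+C content of 67.0% and the Efnb1 window 14 at 59.7%. All 10 members had a window in the table, 12 windows in all, with 10 to 34 CpG each. At least 10 CpG were present in 43.5% of the 32851 promoter windows of the table, whose median was 7. The motif TGANTCA, the core bound by AP-1 factors and searched on both strands, was in 0 of the 12 member windows and in 7.81% of all windows, which says only that these letters are not in these 300 bases.

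The members are spread over 7 chromosomes, with 3 of them (Epha2, Epha7 and Ephb2) on chromosome 4. Ephb6 and Epha1 lie 738 kb apart on chromosome 6. Efna1 shares a span of 66.3 kb on chromosome 3 with the ephrin genes Efna3 and Efna4. Counts were given per gene, so the 4 coding and 4 other annotated transcripts of Epha7 (GENCODE M21) were pooled and could not be told apart. Exons of Epha1 overlap 236 bases of Zyx on the opposite strand, and those of Ephb4 overlap 33 bases of Zan. Zyx had a mean of 3773 normalized counts and Zan 3.86, and since the strand setting of the counting was not given in the sources used here, reads of the 2 genes in these bases cannot be told apart.

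Normalized totals were alike between groups, at 27600452 to 28247162 after ablation and 27297950 to 28504390 in the control. The epithelial label was checked against marker genes. The summed level of 8 basal markers ranged from 501006 to 645765 normalized counts (median 584935) in ablation libraries and from 497936 to 630560.3 (median 578715) in controls, and was the higher one after ablation in 5 of 6 pairs. Krt5 and Krt14 made up most of this sum, and single markers did not all follow it. Trp63, the basal cell transcription factor p63, was at 7505 ± 917 in the control and 9844 ± 1141 after ablation, higher in 6 of 6 pairs like Epha7, and Itga6 was also higher in 6 of 6. Itgb4 was lower in 6 of 6 pairs and Pdpn in 5 of 6, at 1096 ± 57.1 and 974 ± 125. Of the luminal markers, Krt8 was higher in 6 of 6 pairs. Cyp2f2, Scgb3a1, Scgb3a2 and Muc5b were each lower in 4 of 6, and Scgb1a1 was higher in 3 and lower in 3. The sum of these secretory markers, Krt8 included, was higher in only 2 of 6 pairs. The secretory list, which summed to 52728 to 102135 after ablation and 55129 to 90044 in the control, was carried by Cyp2f2 and Krt8, while Scgb1a1, which defines club cells, did not exceed 9.65. Foxj1, which defines ciliated cells, did not exceed 18.1. Sums of 7 fibroblast markers did not exceed 48.3 in any library, and those of 5 endothelial markers between 2.96 and 16.4 with Kdr and Cldn5 at 0. The 6 immune markers summed to 133 to 222 with Adgre1 at 0, and the 5 neuronal and neuroendocrine markers to 991 to 2004, nearly all of it Map2. The part of these markers in the differences of Eph genes was not tested. In bulk RNA, fewer cells of a type and less RNA per cell cannot be told apart.

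The first question was which receptors and ligands airway organoids express. Levels are compared per kb of exon, in normalized counts per kb over the 6 control libraries. The length is that of all annotated exons of a gene merged, not that of the transcripts in use. The order of genes and the sums of classes rest on that length. Epha2 was the highest of the family with 1414 ± 311 (SD, n = 6), followed by Efnb1 with 770.1 ± 87.6, Epha1 with 698 ± 53.9 and Efna1 with 687 ± 59.6. Epha2 is a receptor abundant in many epithelia, and Efna1 is one of its main ligands. The lowest control value of Epha2 per kb, 1120.4, was above the highest of Efnb1, 892. The ranges of Efnb1, Epha1 and Efna1 overlapped, and Efnb1 was above Epha1 in 5 of 6 controls and Epha1 above Efna1 in 3 of 6.

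A second tier began with Efnb2, an ephrin-B that is no member of the set, at 463 ± 84.8 per kb. Ephb3 followed with 323 ± 37.4, Ephb4 with 317 ± 40.9 and Ephb6 with 281 ± 38.8. Epha7 took place 10 among the 17 expressed genes with 226 ± 37.7, below Efna4 with 259.9 ± 31.4 and above Efna3 with 182 ± 40.2. Ephb2 with 148 ± 18.9 and Epha4 with 143 ± 15.6 were the lowest of the members. From Efnb2 down to Epha4, each gene overlapped its neighbour in the order. Efna2 at 15.2 ± 5.46, Efnb3 at 13.1 ± 3.56 and Ephb1 at 1.77 ± 0.513 were far lower, and Epha4 did not overlap Efna2, nor Efnb3 Ephb1.

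**Figure D1:**
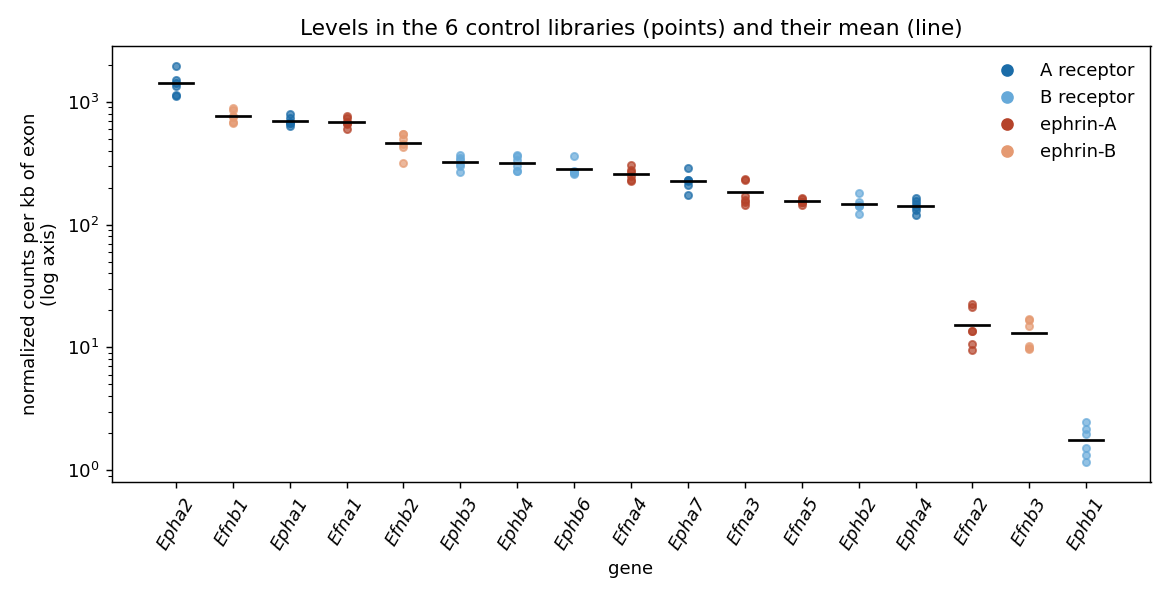
Levels of 17 Eph and ephrin genes in the 6 control libraries, in normalized counts per kb of exon on a log axis. Points are libraries and lines are means. Epha2 stands above the rest at a mean of 1414, 13 genes lie between 143 and 770.1, and Efna2, Efnb3 and Ephb1 lie at 15.2 or less.

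The receptors Epha3, Epha5, Epha6, Epha8 and Epha10 were at or near 0, with no library above 2.05 normalized counts. They had any count in 1 to 4 of the 12 libraries. These counts were too few for a difference between the groups to be tested. Among the control levels summed per kb, A receptors came to 2482 ± 292, B receptors to 1071 ± 109.9, ephrin-A ligands to 1299 ± 97.5 and ephrin-B ligands to 1246 ± 68.7.

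The second question was whether the RNA of these genes differed 4.5 h after ablation. Epha7, an A receptor studied mostly in the developing nervous system, had a higher level after ablation in every pair. In normalized counts, it stood at 2859 in control 1 and 3682 in ablation 1, at 2066 and 2661 in pair 3, and at 2239 and 3030.3 in pair 4. It stood at 2269.8 and 3358 in pair 5, at 1713 and 2310.3 in pair 6, and at 2282 and 2664 in pair 7. The groups overlapped when pairs were ignored, because the highest control (pair 1) lay above the lowest 3 ablation libraries, whereas within pairs the ablation library was always the higher one.

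The mean of Epha7 was 2238 ± 372 in the control and 2951 ± 507 after ablation (SD, n = 6 each), a log2 difference of 0.40. Its SE was 0.11 with the library set as a term and 0.044 with the pair as a term. Single pairs differed by between 0.22 (pair 7) and 0.56 (pair 5) on the log2 scale, with an SD of 0.112 over the 6 pairs. The mean was 0.43 in library set 1 and 0.36 in library set 2, and lay between 0.36 and 0.43 when each pair was left out in turn. Among all 13792 genes, 5.17% were higher after ablation in all 6 pairs and 4.63% were lower in all 6. Since the set was chosen for this value of Epha7, nothing is read from these shares.

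**Figure D2:**
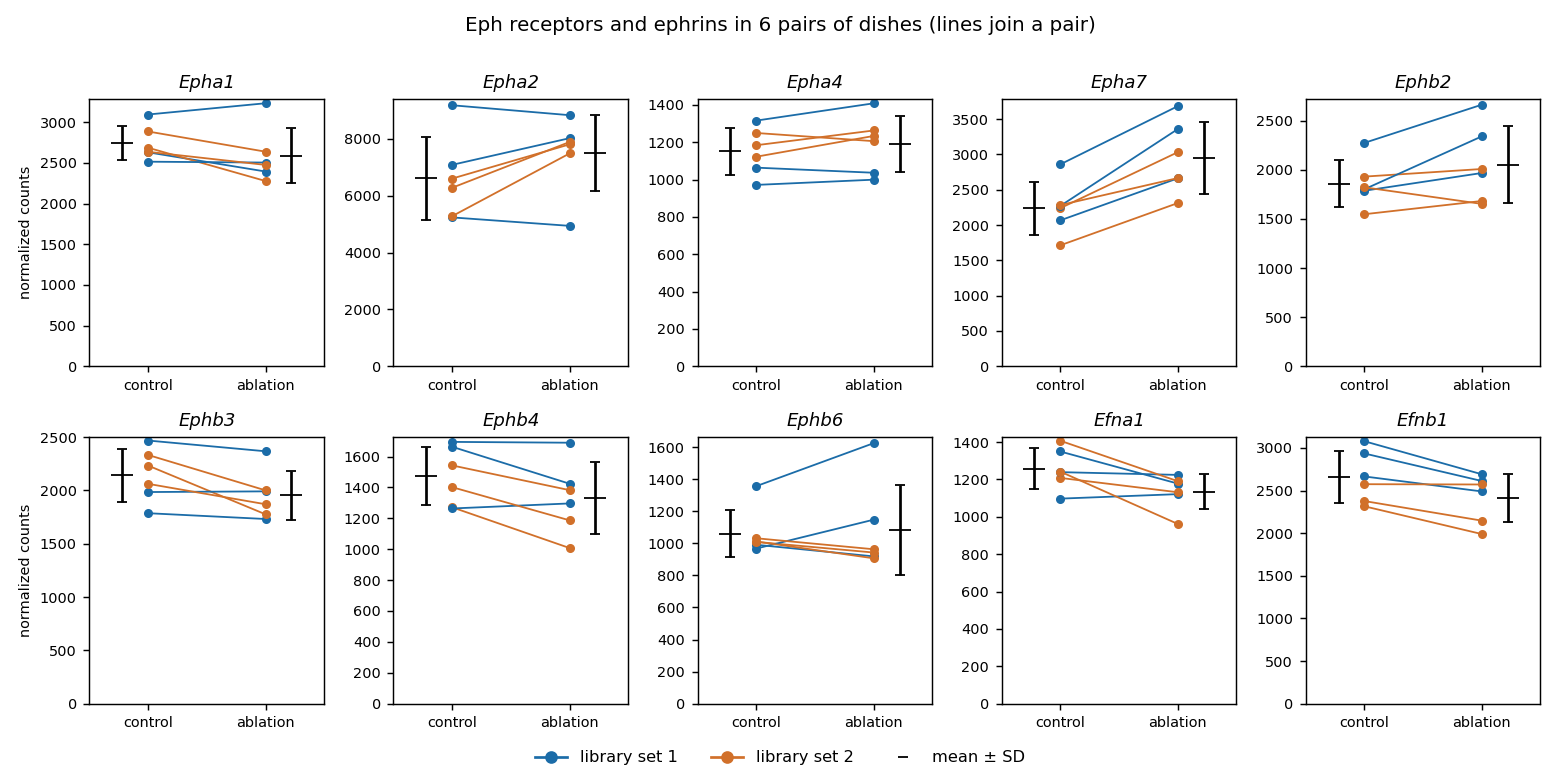
Normalized counts of the 10 members in control and ablation libraries, with lines joining the libraries of a pair, colours for the library set, and bars for the mean ± SD of each group (n = 6). Epha7 is higher after ablation in 6 of 6 lines and Efnb1 lower in 6 of 6, whereas the other genes have lines in both directions.

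Epha2 ran from 5237 to 9181 in the controls (median 6441) and from 4939 to 8832 after ablation (median 7848). It was higher after ablation in 4 of 6 pairs, and the groups overlapped widely. The log2 difference of 0.19 (SE 0.15) did not pass the test over all genes (adjusted p = 0.798 with limma, 0.198 in the paired model). It was 0.013 in library set 1 and 0.36 in library set 2, where the paired limma model alone passed it (adjusted p = 0.0292). Library set 2 holds the 3 controls whose titles contain the word ablation.

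The other A receptors differed less. Epha4, a receptor that binds ligands of both classes, ran from 971 to 1315 in the controls (median 1153) and from 999 to 1408 after ablation (median 1219). Its log2 difference was 0.047 (SE 0.089, limma adjusted p = 0.921 and 0.612 in the paired model, higher in 4 of 6 pairs). Epha1, expressed mainly in epithelia, ran from 2516 to 3096 (median 2662) and from 2278 to 3234 (median 2491). Its log2 difference was -0.090 (SE 0.079, limma adjusted p = 0.809 and 0.299 in the paired model, lower in 5 of 6 pairs). Neither Epha4 nor Epha1 had groups that stood apart. In library set 1 alone the log2 differences were 0.034 for Epha4 and -0.026 for Epha1.

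Of the B receptors, Ephb2 was higher after ablation in 5 of 6 pairs. Its controls ran from 1548 to 2274 (median 1812) and its ablation libraries from 1653 to 2662 (median 1988), and the exception was pair 7 with 1822 and 1653. The log2 difference of 0.13 (SE 0.096) did not pass the test (limma adjusted p = 0.763, and 0.247 in the paired model). It was 0.25 in library set 1 and 0.012 in library set 2. Ephb2 and Ephb3 are known in the intestine for the sorting of crypt cells, where they act against the same ligands.

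Ephb3 and Ephb4 differed in the other direction. Ephb3 ran from 1787 to 2469 in the controls (median 2148) and from 1732 to 2368 after ablation (median 1931), lower in 5 of 6 pairs. Ephb4, the receptor for ephrin-B2 in blood vessels, ran from 1264 to 1695 (median 1472) and from 1007 to 1689 (median 1339), again lower in 5 of 6 pairs. In each gene the exception was pair 5, with 1985 and 1992 for Ephb3 and 1264 and 1296 for Ephb4. The log2 differences were -0.13 (SE 0.090, limma adjusted p = 0.740) and -0.15 (SE 0.10, limma adjusted p = 0.737). In the paired limma model the adjusted p was 0.176 for Ephb3 and 0.158 for Ephb4. In library set 1 alone they were smaller, -0.033 for Ephb3 and -0.064 for Ephb4, beside -0.23 and -0.24 in library set 2. Ephb6, which lacks kinase activity, ran from 967 to 1356 in the controls (median 1009.6) and from 906 to 1624 after ablation (median 952), with a log2 difference of 0.0071 (SE 0.12), which was 0.13 in library set 1 and -0.12 in library set 2. Both of its highest values were those of pair 1, 1356 and 1624, while no other library exceeded 1147.

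Both ephrins of the set were lower after ablation in most pairs. Efna1 ran from 1097 to 1407 in the controls (median 1240.2) and from 962 to 1224 after ablation (median 1154), lower in 5 of 6 pairs, with the exception of pair 3 at 1097 and 1121. Efnb1 was lower in 6 of 6 pairs, at 2936 and 2613 in pair 1, 3079 and 2692 in pair 3, 2316 and 1990.2 in pair 4, 2666 and 2490.2 in pair 5, 2377 and 2147 in pair 6, and 2575 and 2572 in pair 7. The groups of Efnb1 overlapped, and pair 7 was almost level. Log2 differences were -0.15 (SE 0.072) for Efna1 and -0.14 (SE 0.063) for Efnb1, which did not pass the test over all genes (limma adjusted p = 0.648 and 0.629, and 0.184 and 0.103 in the paired model). In library set 1 alone they were -0.061 and -0.15, and in library set 2 -0.23 and -0.12.

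In the library set model no gene passed an adjusted p of 0.05 (0% of 13792 with limma), neither among all genes nor among the 9 members other than Epha7, and 1083 genes had an unadjusted p under that value. On the 9 libraries with recovered reads, edgeR's quasi-likelihood test also called 0, with 807 at an unadjusted p under 0.05. The paired model called 1.09% of all genes, 150 in number. Epha7 was left out of the count of members, and 0 of the other 9 passed in it, the lowest adjusted p being the 0.103 of Efnb1. At an unadjusted p under 0.05, 6 of these 9 passed in the paired model and 1 in the library set model, beside 17.6% and 7.85% of all genes, and no inference is drawn since the members were chosen with results of this contrast known. Of the 10 members, 5 were lower in at least 5 of 6 pairs (Epha1, Ephb3, Ephb4, Efna1 and Efnb1), as were 18.4% of all tested genes. The median log2 difference of the 9 was -0.090, beside -0.0036 over all tested genes. Of the 9, 4 were higher and 5 lower, beside 6689 and 7103 of all tested genes.

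**Figure D3:**
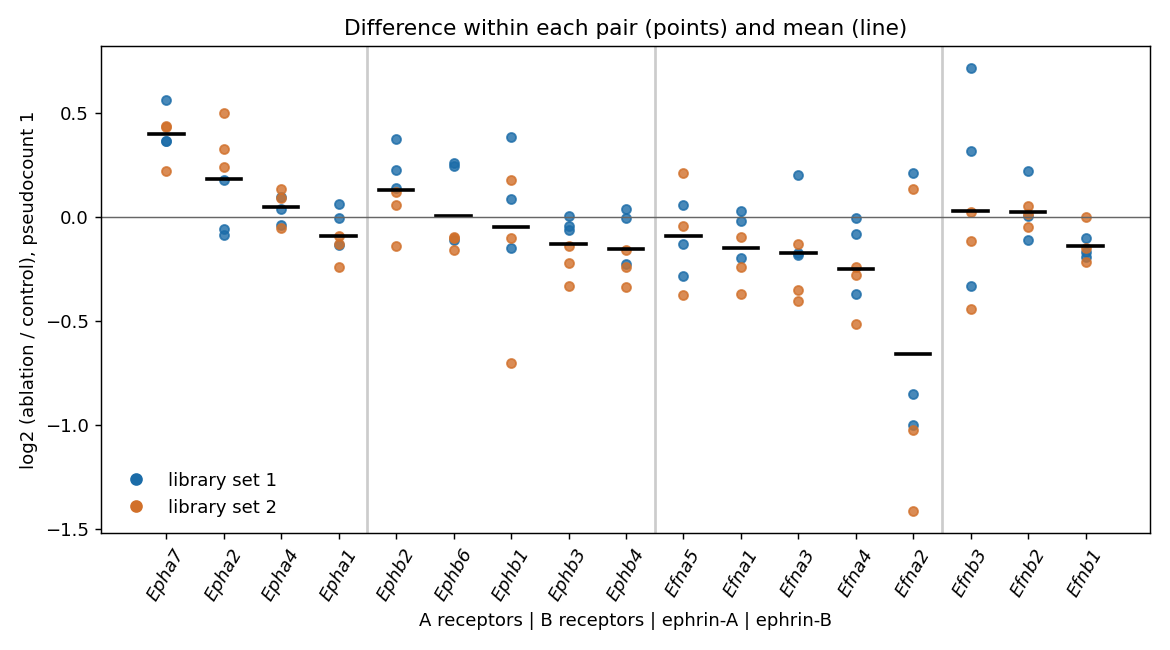
Log2 ratio of ablation to control within each of the 6 pairs (points, pseudocount 1, coloured by library set) and their mean (lines) for 17 Eph and ephrin genes in 4 classes. Epha7 has a mean of 0.40 with all points above 0, and Efna4 and Efnb1 have no point above 0.

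Counting the other family genes, 6 of 8 ephrins had a lower mean after ablation and 2 a higher one. Of all 13792 tested genes, 7103 were lower and 6689 higher. The 8 ephrins had a median log2 difference of -0.143, and 0 of 8 were called in either model. Of the 8, Efnb1 and Efna4 were lower in all 6 pairs, as were 4.63% of all tested genes. Efna4 ran from 361 to 492 in the controls (median 412) and from 300.1 to 380.2 after ablation (median 355), with pair 5 almost level at 369 and 368. Its log2 difference was -0.25 (SE 0.091, limma adjusted p = 0.586 and 0.114 in the paired model), and -0.15 in library set 1 alone. Exons of Efna4 share 168 bases with a gene on the opposite strand that had a mean of 14.8 normalized counts.

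The other ephrin-A genes were Efna3, at 444 ± 97.9 in the control and 395 ± 93.0 after ablation, Efna5, at 625 ± 29.6 and 589 ± 69.4, and Efna2, at 32.4 ± 11.6 and 20.9 ± 8.74. Efna2 had the lowest log2 difference of the family, -0.66 (SE 0.30, limma adjusted p = 0.629), lower in 4 of 6 pairs at these low counts. In library set 1 alone the log2 differences were -0.55 for Efna2, -0.051 for Efna3 and -0.12 for Efna5. Efnb2, the ligand of Ephb4, was at 3171 ± 581 and 3191 ± 384, and Efnb3 at 41.7 ± 11.3 and 42.3 ± 10.5, with log2 differences in library set 1 alone of 0.038 and 0.24. The 9 tested receptors had a median log2 difference of 0.0071, with 5 higher and 4 lower. Epha7 is among the 5, and it was chosen for being higher, so nothing is read from this count. Ephb1, outside the set, was at 12.4 ± 3.59 and 11.7 ± 2.28, with 0.11 in library set 1 alone.

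Summed per kb within classes, A receptors were at 2482 in the control and 2709 ± 215 after ablation. This sum includes Epha7, which was chosen for being higher in all 6 pairs, so nothing is read from its direction. Of the other expressed A receptors, Epha2 and Epha4 were each higher in 4 of 6 pairs and Epha1 in 1 of 6. B receptors were at 1071 and 1033 ± 173, higher in 2 of 6 pairs. Ephrin-A ligands were at 1299 and 1156 ± 91.3 and ephrin-B ligands at 1246 and 1179 ± 71.3, each higher in 1 of 6 pairs. These sums were not tested.

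The genes that carry the signal inside the cell were followed with a list of 50 adaptors, kinases, GTPase regulators, phosphatases and binding proteins, of which 47 were tested. In the library set model 0 of the 47 passed, and in the paired model 2 passed, Vav3 and Fyn, beside 1.09% of all genes. The median log2 difference of the 47 was -0.012, with 18 higher and 29 lower, beside 6689 and 7103 of all tested genes. In all 6 pairs, 8 of the 47 differed in 1 direction, 3 higher (among them Nck1 and Vav3) and 5 lower (among them Grb2, Grb10, Fyn and Sipa1l1), beside 9.8% of all genes.

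Vav3, a guanine nucleotide exchange factor that Eph receptors recruit, ran from 3089 to 3849 in the controls (median 3421) and from 3757 to 4593 after ablation (median 4264). Only the lowest ablation library, that of pair 6, lay below the highest control. Its log2 difference was 0.31 (SE 0.063), which passed in the paired model and not in the library set model (limma adjusted p = 0.0224 and 0.187). When each pair was left out of the paired model in turn, the adjusted p ran from 0.00918 to 0.0864 and missed the threshold without pair 3, 4 or 5 (0.0559, 0.0826 and 0.0864). With plain eBayes in the paired limma model it was 0.164, and in library set 1 alone the log2 difference was 0.33.

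Fyn, a Src family kinase that acts downstream of both receptors and ephrin-B, ran from 148 to 330.1 in the controls (median 234) and from 114 to 260.0 after ablation (median 159). It was lower in 6 of 6 pairs, with pair 5 almost level at 266 and 260.0. Its log2 difference was -0.47 (SE 0.11), which passed in the paired model alone (limma adjusted p = 0.0423, and 0.346 in the library set model). Without each pair in turn the adjusted p in the paired limma model ran from 0.0338 to 0.161 and passed only without pair 5. With plain eBayes in that model it was 0.159, and in library set 1 alone the log2 difference was -0.49.

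**Figure D4:**
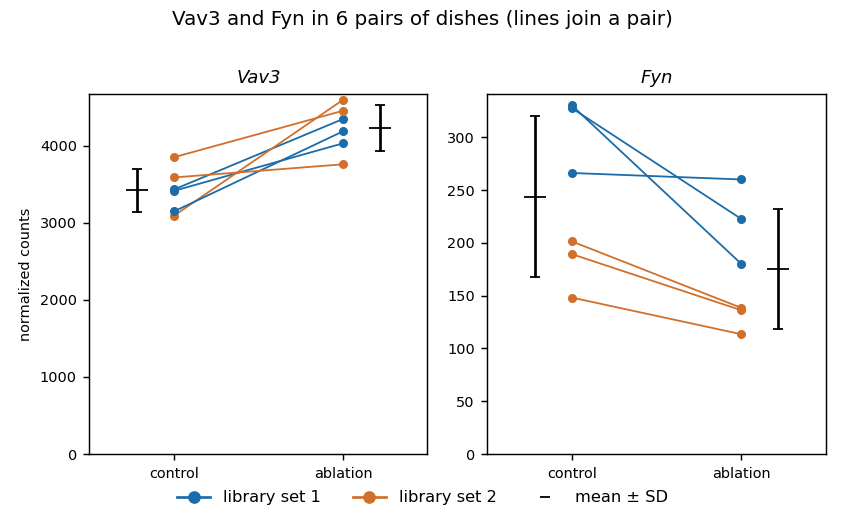
Normalized counts of Vav3 and Fyn in control and ablation libraries, with lines joining a pair, colours for the library set and bars for the mean ± SD (n = 6). Vav3 is higher after ablation in 6 of 6 pairs, with means of 3419 and 4226, and Fyn is lower in 6 of 6, with means of 244 and 175.

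At the ends of the list by log2 difference, the adaptor Nck1 was at 3081 ± 162 in the control and 3416 ± 216 after ablation (0.15, limma adjusted p = 0.573, and 0.0863 in the paired model). The docking protein Dok1 was at 387 ± 37.2 and 428 ± 56.1 (0.14, adjusted p = 0.718 with limma). The adaptor Grb10 was at 40.8 ± 23.0 and 26.0 ± 11.7 (-0.54, adjusted p = 0.604 with limma), and the Rac regulator Chn2 at 192 ± 26.3 and 171 ± 35.0 (-0.18, adjusted p = 0.791 with limma). In library set 1 alone the log2 differences were 0.13 for Nck1, 0.17 for Dok1, -0.62 for Grb10 and -0.20 for Chn2.

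Culture age and passage were not part of the choice of genes and could be tested. The libraries of a pair were averaged, which left 6 values per gene for culture days 14 to 20. Against culture day, 0 of 13792 genes passed (0% with limma, and 7.58% at an unadjusted p under 0.05), and 0 of the 10 members. The slope was negative for 7 members and positive for 3, beside 6740 and 7052 of all tested genes. The lowest adjusted p of a member was that of Ephb2, with a log2 slope of -0.050 per day (SE 0.017, limma adjusted p = 0.639). Epha7 had a slope of -0.056 per day (SE 0.022, limma adjusted p = 0.645), and Efnb2 outside the set one of -0.064 (SE 0.022, limma adjusted p = 0.639).

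Between passages P2+16 and P2+14, 9 genes passed (0.0653% of those tested with limma, and 13.1% at an unadjusted p under 0.05). Of the 10 members 0 passed. At P2+16, 3 of them were higher and 7 lower, beside 6784 and 7008 of all tested genes. Epha7 was lower by a log2 difference of -0.32 (SE 0.17, limma adjusted p = 0.480) and Ephb2 by -0.36 (SE 0.13, limma adjusted p = 0.313), while Epha4 was higher by 0.24 (SE 0.092, limma adjusted p = 0.343). For Epha7, the difference between passages was thus of a size like that between ablation and control, with a wider error. The ligand Efna3, outside the set, was lower by -0.64 (SE 0.11, limma adjusted p = 0.0888), at 577 and 557 in controls 1 and 3 and 389 and 353 in controls 6 and 7. P2+14 lay in library set 1 alone and P2+16 in library set 2 alone, and the 2 pairs of P2+15, 1 in each set, are all that separates passage from set. With the library set as a term, added after the data were seen, 0 genes passed for passage (limma, 411 at an unadjusted p under 0.05), and the log2 difference was -0.52 (SE 0.19) for Efna3 and -0.23 (SE 0.32) for Epha7.

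The response to ablation was also compared between the library sets, as a difference of paired differences (set 2 minus set 1). Of all genes, 1 passed (0.00725% with limma, and 7.88% at an unadjusted p under 0.05), Slc16a3, named here after its values were seen, and of the members 0 passed. Epha2 had the lowest p of the members, with a log2 difference of 0.34 between the sets (SE 0.092, unadjusted p = 0.0025, limma adjusted p = 0.406). In set 1 it was higher after ablation in 1 of 3 pairs, at 5237 and 4939, 7086 and 8023, and 9181 and 8832. In set 2 it was higher in 3 of 3, at 6603 and 7806, 5281 and 7487, and 6280.1 and 7889. Epha7 responded by 0.43 in set 1 and 0.36 in set 2, a difference of -0.068. This is a description only, since Epha7 was chosen by these same pair differences. The difference between sets was negative for 7 of the 10 members, Epha7 among them, and for 6696 of the 13792 tested genes. Its median over the members was -0.150, beside 0.0062 over all genes.

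The genes whose levels ran most like Epha7 were sought over the 12 libraries by Pearson's r of log2 values, as a description. The leading genes were Robo1 (r = 0.93), D17H6S53E (r = 0.92), Zfand2b (r = 0.91), Cnst (r = 0.89) and Fnbp1 (r = 0.89). The 12 libraries share pairs and 2 conditions, so part of each r is the difference between ablation and control itself. Robo1, a receptor for Slit ligands in axon guidance and cell migration, ran from 1231 to 1667 in the controls and from 1451 to 2111 after ablation, and was higher in 6 of 6 pairs. Within the family Ephb2 was the most alike, with r = 0.86 and rank 16 of 13791 genes, followed by Ephb6 with r = 0.56. The other 14 tested family genes lay between -0.36 and 0.24.

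Epha7 and Ephb2 shared their highest and lowest libraries in the control. Both had their highest control value in pair 1 (2859 for Epha7, 2274 for Ephb2) and their lowest in pair 6 (1713 and 1548). After ablation both were highest in pair 1, at 3682 and 2662, and second highest in pair 5, at 3358 and 2340.0. The ephrins of the set did not share this order, and r with Epha7 was 0.013 for Efna1 and -0.037 for Efnb1.

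**Figure D5:**
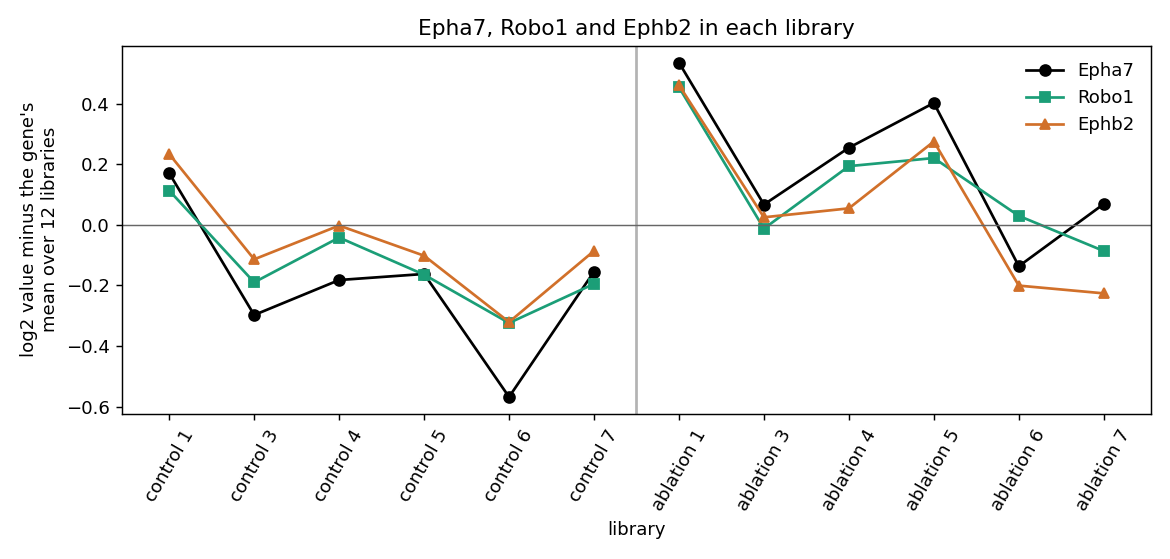
Log2 values of Epha7, Robo1 and Ephb2 in each of the 12 libraries, as the difference from the mean of each gene over all libraries, with lines drawn only to guide the eye. All 3 genes are highest in ablation 1, and in the control all 3 are highest in control 1 and lowest in control 6.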

How the data were processed

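The authors counted reads of stranded poly(A) libraries per GENCODE mouse gene with nf-core/rnaseq, per the labels on GRCm38.p6. They deposited a signal, normalized counts, in which each library's counts were divided by its DESeq2 size factor. The deposited table also holds gene lengths and the authors' own comparison (log2 fold changes, score columns with standard errors and test statistics, and p-values), which was not used. In all 12 columns, 100% of values were whole multiples of 1 step (tolerance 0.1), which gave back 23631212 to 29775699 reads in 9 libraries. In the other 3 (ablation 3, ablation 4 and control 4) the step lay too near 1 to be accepted. No count model could therefore be run on all libraries, and limma was used as planned.

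In R 4.3.3, limma 3.58.1 (eBayes with trend and robust estimation) was fitted to log2(normalized count + 1) for the 13792 genes that reached 10 normalized counts in 6 or more libraries, out of 28534 with any read, with condition and library set as terms. Folds on this scale understate the change of low genes. The second factor of the authors' own model was an unspecified batch, for which the library set stands here. The paired model (replicate block) has the pair in its place. Same-numbered libraries share passage, culture day and date, and their deviations from group means had a correlation across genes of 0.62 in pair 1, 0.49 in pair 3, 0.21 in pair 4, 0.32 in pair 5, 0.38 in pair 6 and 0.33 in pair 7, so the numbers were taken to pair the samples. The Benjamini-Hochberg adjustment ran over all tested genes, with a threshold of 0.05. Culture day and passage were fitted on pair means, and the response in each library set with the pair as a term. The fits were tested on simulated data.

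The members, the gene lists, the count minimum and the variance model were chosen with earlier results of these data known. Named genes were the 10 members, every other Eph and ephrin gene, the pathway genes past the threshold or among the 3 highest and 3 lowest log2 differences, and the 5 genes most correlated with Epha7. Grb2 and Sipa1l1 were added after their values were seen. Some pathway genes are not reported here by name. Gene positions, lengths and exon overlaps were those of the deposited gene models. GENCODE M21, in which 54349 of the 55401 identifiers were found, was used to count transcripts. Promoter windows came from RefSeq (GRCm38.p6). Alternatives tried were the replicate block, no filter on low values, a pseudocount of 5, plain eBayes, quantile normalization, edgeR 4.0.16 on the 9 libraries with recovered reads, each pair left out, and each library set alone.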

Additional observations from a re-analysis of the deposited data

Results flagged for a closer look

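Of 46 groups of 6 libraries, 3 held a value far from the other 5, where chance would give about 1 in 20. Epha2 in ablation 1 was the lowest of its group at 4939 normalized counts, with the nearest library at 7487. Ephb6 was highest in both libraries of pair 1, at 1624 in ablation 1 (nearest 1147) and 1356 in control 1 (nearest 1031). The part of pair 1 in the differences was not tested beyond leaving it out, which gave log2 differences of 0.24 for Epha2 and -0.04 for Ephb6.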

How the results depend on the processing

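With limma, the library set model called 0 genes, and the paired model (replicate block) called 150, of which 0 were among the 9 members other than Epha7 and 2 were pathway genes (Vav3 and Fyn). Without the filter on low values, the library set model called 3 genes (Arrdc3, Tenm4 and Osgin1, named after their values were seen). Quantile normalization with the block gave 168 genes, 0 of the 9 members and 2 pathway genes. In the paired model, library set 1 alone gave 16 genes and 0 of the 9 members, and library set 2 alone gave 109 genes and 1 of the 9 (Epha2, at an adjusted p of 0.0292). With a pair left out of either model, counts ran from 0 to 176 for all genes (8 to 176 in the paired model, with 8 without pair 4) and from 0 to 1 for pathway genes, while 0 of the 9 members were called in any of these fits. The paired fit changed no other call among these 9, the other family genes and the pathway genes. Plain eBayes gave 0 genes with and without the block, and edgeR on 9 libraries gave 0, with 807 at an unadjusted p under 0.05. Other variants kept the counts at 0.

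Without the filter, culture day gave 36 genes and passage 220, among them Efna3 (adjusted p = 0.0227). Plain eBayes gave 0 for passage, and passage with the library set as a term, added after the data were seen, gave 0 with 411 genes at an unadjusted p under 0.05. For the response between library sets, plain eBayes gave 0 and the fit without the replicate block 0. The causes were not tested.

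The sign turned in 4 genes near 0. With a pair left out, the log2 difference of Ephb6 ran from -0.044 to 0.040, that of Ephb1 from -0.14 to 0.081, that of Efnb2 from -0.017 to 0.049 and that of Efnb3 from -0.11 to 0.12. In library set 2 alone Ephb6 was at -0.12 and Efnb3 at -0.18, in library set 1 alone Ephb1 was at 0.11, and with edgeR it was at 0.086. Of the values of single genes under the alternatives, 481 kept direction and call, 16 changed sign and 9 passed the threshold only in the alternative. The library set model called 0 genes, and the paired model has the same log2 differences, so the 481 do not measure robustness.

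For Epha3, Epha5, Epha6, Epha8 and Epha10 counts were too few to test a difference.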
